A study of Homo sapiens with 9 samples.

Results

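The genes described here are 30 established transcriptional targets of p53, chosen by name from textbook lists and grouped by what they do: arrest of the cell cycle, cell death, feedback on p53, DNA repair, and metabolism. Their chromatin was read from a table of accessibility counts in 148797 rows, each row being 1 interval of the genome. A row was a gene-end row when its centre lay within 1 kb of either end of the gene in the GRCh38 table of RefSeq genes. By this rule 26 of the 30 genes had gene-end rows, 31 rows in all, out of 14102 such rows at 14073 of 20037 protein-coding genes. A further 259 rows lay inside the 30 genes or within 50 kb of them. CDKN1A, BBC3, FAS and SPATA18 had no gene-end row, and were described by the rows within the gene.

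p53 is a transcription factor that accumulates after DNA damage and other stress and binds a DNA element made of paired copies of a short consensus, either at gene promoters or in first introns and distal sites. Its targets include CDKN1A, which blocks cyclin-dependent kinases, BAX and BBC3, which open the mitochondrial route to cell death, and MDM2, which marks p53 itself for degradation. SK-N-BE(2)c is an established neuroblastoma cell line, a clonal derivative of SK-N-BE(2), known to carry amplified MYCN.

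All cells were SK-N-BE(2)c transfected by lipofection with 100 nM of an antisense oligonucleotide (ASO) and collected 48 h later. Per the series' design text, ASO2 and ASO10 target NESPR, a long non-coding RNA, and NCA serves as negative control, so every group including the control received an oligonucleotide. Each group had 3 libraries of ATAC-seq, in which Tn5 transposase tags accessible DNA. The labels number the libraries but do not say whether they came from separate cultures, so the p-values measure the spread between these libraries, which may be technical.

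Total counts ranged from 7293565 to 10948569 per library, and 119417 rows had enough counts to be tested. The coefficient of variation between replicates in the fit was 23.5%, and a single row took 6.98% to 9.04% of the counts of a library. Of 11 genes known as markers of sympathetic neuroblastoma cells, 10 had a gene-end row, with TH the exception. Of 11 markers of other cell types, PECAM1 had one, at a mean of 4.27 CPM (counts divided by the TMM-scaled library total).

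The 31 gene-end rows were all tested. With the RefSeq start known for 25 of the 30 genes, 21 rows lay at the upstream end of the gene in the gene table and 5 at its stop, and for 5 the end could not be told. In AEN that upstream end is far from the start in the promoter table, with an offset of -16.2 kb. Of the 31 rows, 9 also lay at the end of a neighbouring gene, so their signal belongs to both genes: APAF1 with IKBIP, TRIAP1 with GATC, FDXR (stop) with GRIN2C, TP53I3 (stop) with SF3B6 and FAM228B, XPC (stop) with TMEM43, XPC (start) with LSM3, POLH with XPO5, SESN1 with CEP57L1, and TNFRSF10B with RHOBTB2.

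Levels were compared between genes as CPM per kb of row, averaged over the 9 libraries. The highest was at RRM2B, a subunit of ribonucleotide reductase that supplies nucleotides for repair, with 61.4 CPM per kb. It was followed by CCNG1 with 43.6 and by the start of FDXR with 34.7. CCNG1 encodes cyclin G1 and FDXR a mitochondrial ferredoxin reductase. The lowest levels were at PERP, a membrane protein of the apoptotic response, with 4.84, and at the stop of AEN, an apoptosis-enhancing nuclease, with 4.23. The median of the 31 rows was 15.4 CPM per kb against 12.3 over all gene-end rows, and 21 of the 31 lay above that median. The rows at these genes were also wider, with a median of 1281 bases against 1038 over all gene-end rows.

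Neighbours in the order of levels were often closer than their spread. In the NCA libraries GADD45A held 31.3 ± 2.75 CPM per kb and the start of FDXR 34.8 ± 4.60 (SD, n = 3 each). MDM2 held 16.2 ± 2.33 and BAX 13.3 ± 1.47 (SD, n = 3 each). Such pairs are not ranked by these data, whereas RRM2B, at 56.4 ± 4.81 in NCA, lay above CCNG1, at 43.8 ± 3.08 (SD, n = 3 each). That order is of CPM per kb: the DNA copy number of the loci was not measured, and the SD does not cover it.

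**Figure D1:**
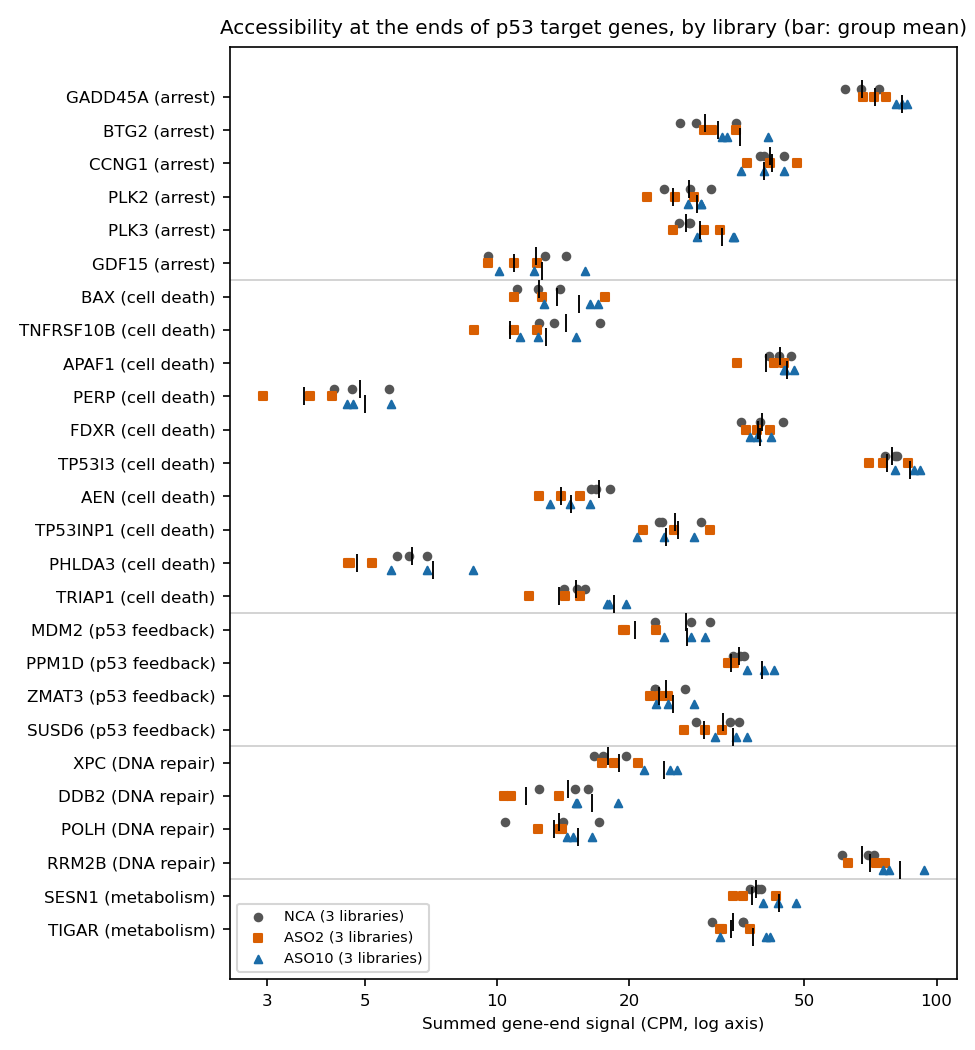
Accessibility at the ends of the 26 genes with a gene-end row, summed over the rows of a gene, in CPM on a log axis. Each point is 1 library (3 for NCA, 3 for ASO2, 3 for ASO10), a vertical bar is the group mean, and grey lines part the functional groups. The groups lie close together at most genes, with GADD45A between 61.9 and 85.7 CPM and PERP between 2.94 and 5.75 CPM.

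Promoter sequence was available from RefSeq (GRCh38.p14) for 25 of the 30 genes, as the 250 bases before the start, and both strands were searched for short motifs. The p53 half-site consensus, the single short element that p53 binds in pairs, was found in 3 of the 25 promoters, those of FDXR, PLK2 and AEN, and in 5.1% of 15843 promoters of the same length. Paired half-sites, counted only where both copies matched the consensus exactly, were found in none of the 25 and in 0.0189% of all promoters. Pairs with a mismatch in either copy were not searched for, so this count does not exclude them. The 3 windows with a match are shown because they carry the letters that p53 is known to read; capitals mark the half-site. In GRCh38 they are chr17:74872995-74873244 on the minus strand, chr5:58460087-58460336 on the minus strand and chr15:88621090-88621339 on the plus strand.
FDXR: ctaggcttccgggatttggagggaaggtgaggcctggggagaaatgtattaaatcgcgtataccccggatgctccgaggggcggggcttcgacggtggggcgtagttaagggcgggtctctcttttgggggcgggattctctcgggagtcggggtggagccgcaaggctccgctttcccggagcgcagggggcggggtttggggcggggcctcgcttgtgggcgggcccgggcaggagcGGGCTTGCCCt
PLK2: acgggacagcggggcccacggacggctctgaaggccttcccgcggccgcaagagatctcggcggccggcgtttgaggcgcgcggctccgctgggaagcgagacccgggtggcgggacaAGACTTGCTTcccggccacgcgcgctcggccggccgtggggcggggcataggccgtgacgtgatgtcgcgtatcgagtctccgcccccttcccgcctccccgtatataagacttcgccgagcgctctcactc
AEN: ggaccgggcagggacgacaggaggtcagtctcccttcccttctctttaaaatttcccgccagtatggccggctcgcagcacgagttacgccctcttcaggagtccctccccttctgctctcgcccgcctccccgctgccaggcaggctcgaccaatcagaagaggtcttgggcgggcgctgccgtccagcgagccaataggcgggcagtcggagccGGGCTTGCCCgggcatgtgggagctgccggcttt

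In FDXR the match begins 11 bases before the start, in AEN 34 bases before it and in PLK2 132 bases before it. All 250 bases of each of these windows were covered by rows of the table. A match describes the letters in the window and is not a measured binding site.

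Other motifs were counted likewise. The GC box GGGCGG was in 20 of 25 promoters against 56.0% of all, CCAAT in 12 against 34.5%, CACGTG in 2 (BBC3 and BAX) against 7.84%, and TATAAA in 1 (GDF15) against 9.23%. The promoters of CDKN1A, the arrest gene with the best known p53 response, and of MDM2, the gene with the lowest p under ASO2 described next, are shown for comparison, at chr6:36678464-36678713 and chr12:68807922-68808171, both on the plus strand. Capitals mark GC boxes in CDKN1A, and in MDM2 a palindrome that reads CCAAT on each strand, the matches overlapping.
CDKN1A: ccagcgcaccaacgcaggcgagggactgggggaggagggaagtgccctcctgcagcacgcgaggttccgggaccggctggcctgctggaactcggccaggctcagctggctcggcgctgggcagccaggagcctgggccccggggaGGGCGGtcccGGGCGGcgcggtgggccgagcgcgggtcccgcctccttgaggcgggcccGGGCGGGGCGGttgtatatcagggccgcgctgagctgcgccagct
MDM2: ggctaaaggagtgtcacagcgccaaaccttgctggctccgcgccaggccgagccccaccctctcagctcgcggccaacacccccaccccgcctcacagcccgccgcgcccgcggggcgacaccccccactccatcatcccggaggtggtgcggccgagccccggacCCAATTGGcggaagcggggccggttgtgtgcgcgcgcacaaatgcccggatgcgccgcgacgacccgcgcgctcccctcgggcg

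The first question was whether the gene ends of the p53 targets changed in accessibility under each oligonucleotide against NESPR. Under ASO2, no gene-end sum of the 26 genes passed the test, and under ASO10 none did either. The median gene-end row differed from NCA by -0.05 on the log2 scale under ASO2 and by 0.15 under ASO10, beside -0.05 and 0.09 over all gene-end rows. A single row passed, at the stop of XPC, the DNA damage sensor of nucleotide excision repair.

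In detail, edgeR's quasi-likelihood test at an adjusted p under 0.05 called 0 of 31 gene-end rows under ASO2, where 1.54% of all gene-end rows were called. It called 1 of 31 under ASO10 (2.14% of all), 1 of 31 for the mean of both ASOs against NCA (1.4% of all), and 0 of 31 between ASO2 and ASO10 (3.31% of all). At an unadjusted p under 0.05 these counts were 4, 6, 3 and 8, beside 10.4%, 17.3%, 12.3% and 20% of all gene-end rows. Both ASOs were compared with the same NCA libraries. Without NCA replicate 1 the XPC row was also called under ASO2 (adjusted p = 0.0172), without NCA replicate 2 the MDM2 row was (0.0312), and without ASO2 replicate 2 the DDB2 row was called between the ASOs (0.0466).

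For sums over the gene-end rows of a gene, the calls were 0 of 26 in all 4 comparisons, against 0.203% of 13804 genes under ASO2, 4.86% under ASO10, 0.753% for both ASOs and 5.0% between ASO2 and ASO10. At an unadjusted p under 0.05, 2, 5, 2 and 8 of the 26 genes remained, beside 10.6%, 19.2%, 12.9% and 22.6% of all genes. DESeq2 and limma-voom each called 1 of the 26 under ASO10, GADD45A, and none in the other comparisons. Without ASO2 replicate 2, or without ASO2 replicate 3, 3 genes were called under ASO10, namely GADD45A, RRM2B and XPC, although neither library is part of that contrast.

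Counting genes whose 3 libraries did not overlap with those of NCA gave 0 higher and 4 lower under ASO2 (4.46% and 9.51% of all genes), and 7 higher and 1 lower under ASO10 (20.2% and 4.58% of all genes). Between the ASOs, 10 genes were lower under ASO2 without overlap and 0 higher (21.7% and 2.69% of all genes). The 4 under ASO2 were TNFRSF10B, PERP, AEN and PHLDA3. None of these 4 passed the edgeR test (lowest adjusted p = 0.381). The 7 under ASO10 were GADD45A, PLK3, TRIAP1, PPM1D, XPC, RRM2B and SESN1, and the 1 lower was AEN. The sum of AEN takes in a row far upstream of its RefSeq start and a row at its stop. At the RefSeq start itself AEN held means of 21.5 CPM in NCA, 18.0 in ASO2 and 22.5 in ASO10.

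Library by library, the median gene-end row of the p53 targets followed all gene-end rows. Relative to the NCA mean, it was 0.111, 0.0842 and 0.146 (log2) in the 3 ASO10 libraries, where all gene-end rows had 0.119, 0.0548 and 0.0942. In ASO2 it was -0.0484, 0.00393 and -0.124, where all gene-end rows had -0.0381, 0.0405 and -0.142. In NCA itself it ranged from -0.0716 to 0.0466, so the ASO10 libraries lay above all NCA libraries and the ASO2 libraries overlapped with them. With loess offsets, which take out the dependence of each library on abundance, the ASO10 median was 0.039 (log2) beside 0.016 over all gene-end rows. How far the upward shift at gene ends as a class enters the values of single genes under ASO10 was not tested.

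**Figure D2:**
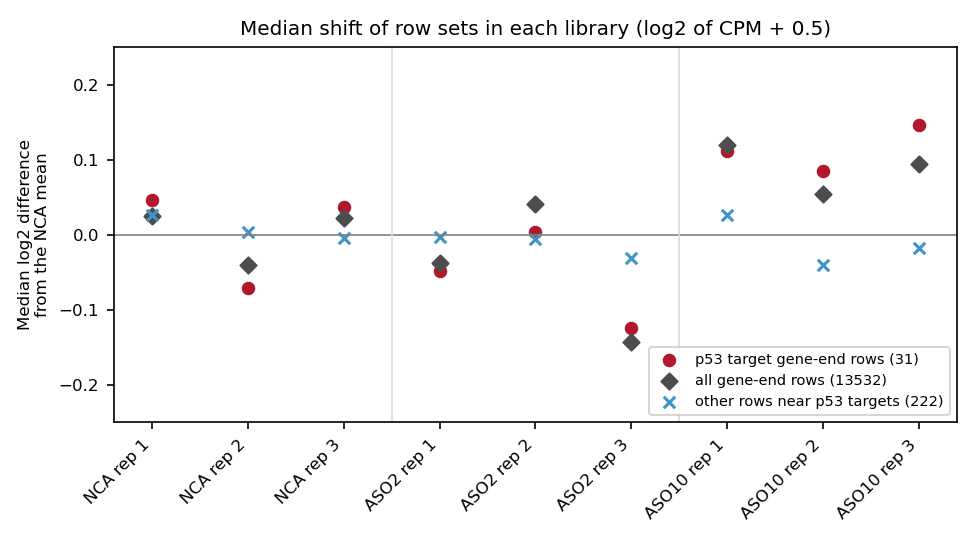
Median log2 difference from the NCA mean in each of the 9 libraries (CPM plus 0.5), for the 31 gene-end rows of the p53 targets, for all 13532 tested gene-end rows, and for the 222 other tested rows near the targets. Both gene-end medians are above 0 in each ASO10 library, and both are lowest in ASO2 replicate 3, at -0.124 and -0.142.

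Of the arrest genes, 6 had gene-end rows and none passed the test. GADD45A, a stress protein that binds cyclin-dependent kinase and repair factors, lay nearest to the threshold. Its gene-end row held 73.8, 61.9 and 67.4 CPM in NCA, 76.9, 72.0 and 68.1 in ASO2 and 80.7, 83.4 and 85.7 in ASO10. All 3 ASO10 libraries were above all of the other 6. As a gene sum, here 1 row, its log2 fold change was 0.30 under ASO10 (95% interval 0.10 to 0.49, adjusted p = 0.0521 over all gene sums) and 0.09 under ASO2 (interval -0.10 to 0.29, adjusted p = 0.79). Tested as a row among all rows, it had an adjusted p of 0.171 under ASO10. The ASO10 sum was called without ASO2 replicate 2 (adjusted p = 0.0252) and without ASO2 replicate 3 (0.0234).

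PLK3, a polo-like kinase of the stress response, held 27.4, 25.97 and 27.3 CPM in NCA, 25.1, 29.6 and 32.1 in ASO2 and 34.6, 28.6 and 34.4 in ASO10. The ASO10 libraries lay above those of NCA, with a log2 difference of 0.27 (interval 0.01 to 0.53, adjusted p = 0.224). BTG2, an antiproliferative factor, overlapped between all groups, with 34.9, 28.4 and 26.1 CPM in NCA and 32.5, 33.3 and 41.4 in ASO10. CCNG1 had one of the 2 positive differences between ASO2 and ASO10 among the 26 genes, 0.06 (log2, interval -0.17 to 0.29). For the sums of PLK2 and GDF15 the intervals of all these contrasts included 0. The GDF15 sum adds 2 rows that differed in direction between ASO2 and ASO10. Its start row gave -0.63 (log2, interval -1.11 to -0.15, adjusted p = 0.152 by edgeR over all rows). Its stop row gave 0.27 (interval -0.27 to 0.82).

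Of the cell death genes, 10 had gene-end rows and none passed the test. BAX, the pore-forming protein of the outer mitochondrial membrane, held 12.4, 13.9 and 11.1 CPM in NCA, 12.6, 17.6 and 10.9 in ASO2 and 12.8, 17.0 and 16.3 in ASO10. The groups overlapped, and the log2 differences were 0.14 under ASO2 (interval -0.20 to 0.48) and 0.30 under ASO10 (interval -0.04 to 0.64). The row at TNFRSF10B, which encodes a death receptor for TRAIL, lies at the end it shares with RHOBTB2. Whether this end is the start or the stop of TNFRSF10B could not be told. There NCA held 17.1, 13.5 and 12.5 CPM, ASO2 8.84, 10.95 and 12.3, and ASO10 15.1, 11.3 and 12.4. All ASO2 libraries were below all NCA libraries, by a log2 difference of -0.41 (interval -0.76 to -0.05, adjusted p = 0.381).

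PHLDA3, an inhibitor of AKT signalling, and PERP had the weakest sums of the group. PHLDA3 held 6.31, 5.93 and 6.92 CPM in NCA, 5.19, 4.61 and 4.59 in ASO2 and 8.80, 6.94 and 5.73 in ASO10. The 3 ASO2 libraries were below the other 6, and the difference between ASO2 and ASO10 was -0.59 (log2, interval -1.09 to -0.08, adjusted p = 0.147). PERP held 4.25, 4.66 and 5.67 CPM in NCA and 4.21, 3.76 and 2.94 in ASO2, a log2 difference of -0.44 (interval -1.05 to 0.18). At this depth changes of that size were not detectable at PERP. TP53INP1, a regulator of autophagy and cell death, had the other positive difference between ASO2 and ASO10, 0.08 (log2, interval -0.19 to 0.34), and TP53I3, an oxidoreductase, differed by -0.03 under ASO2 (log2, interval -0.22 to 0.16).

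Of the feedback genes, all 4 had gene-end rows and none passed the test. MDM2, the ubiquitin ligase that limits p53, held 27.6, 22.8 and 30.5 CPM in NCA, 19.5, 22.96 and 19.4 in ASO2 and 27.6, 24.0 and 29.7 in ASO10. The ASO2 libraries were below all ASO10 libraries, and ASO2 replicate 2 overlapped with the lowest NCA library. The log2 difference was -0.39 under ASO2 (interval -0.66 to -0.12, unadjusted p = 0.0047, adjusted p = 0.231) and 0.00 under ASO10 (interval -0.26 to 0.27). Between ASO2 and ASO10 it was -0.39 (adjusted p = 0.0678). This last value was called when ASO2 replicate 2 was left out (adjusted p = 0.0241). Tested as a row among all rows, MDM2 under ASO2 had an adjusted p of 0.0756, and it passed with loess offsets (0.0282), with library totals (0.0480) and with at least 10 counts in every library (0.0239).

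PPM1D, the phosphatase that switches off p53 signalling, held 35.7, 34.4 and 36.4 CPM in NCA, 34.5, 33.5 and 34.0 in ASO2 and 40.6, 42.7 and 37.1 in ASO10. The ASO10 libraries were the 3 highest, with a log2 difference from NCA of 0.18 (interval -0.06 to 0.42). ZMAT3, an RNA-binding zinc finger protein, overlapped in all groups and differed by -0.05 under ASO2 and 0.06 under ASO10 (log2).

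Of the DNA repair genes, all 4 had gene-end rows. No sum passed the test, and each of the 4 was higher in ASO10 than in ASO2 by fitted value, from -0.49 to -0.18 for ASO2 against ASO10 (log2). That direction was not particular to repair: 24 of the 26 genes were below 0 in this contrast, and 24.5% of all genes were above 0. XPC held 17.4, 16.6 and 19.6 CPM in NCA, 20.9, 18.5 and 17.3 in ASO2 and 21.6, 25.6 and 24.7 in ASO10. The ASO10 libraries were above the other 6, with a log2 difference from NCA of 0.42 (interval 0.13 to 0.71, adjusted p = 0.0693). DDB2, the damaged-DNA sensor that acts with XPC, held 16.1, 15.0 and 12.5 CPM in NCA, 10.4, 13.8 and 10.7 in ASO2 and 18.9, 15.1 and 15.2 in ASO10. The ASO2 libraries were below those of ASO10, by -0.49 (log2, interval -0.83 to -0.15, adjusted p = 0.0657), and this was called without ASO2 replicate 2 (adjusted p = 0.0194).

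RRM2B held 69.7, 61.0 and 71.9 CPM in NCA, 76.3, 73.0 and 62.8 in ASO2 and 78.0, 75.7 and 93.6 in ASO10. The ASO10 libraries were above those of NCA, by 0.28 (log2, interval 0.09 to 0.48, adjusted p = 0.0675), and that was called without ASO2 replicate 2 (adjusted p = 0.0350) or ASO2 replicate 3 (0.0326). XPC was likewise called without either of them (0.0468 and 0.0448). POLH, a polymerase that copies across ultraviolet lesions, overlapped between NCA and both ASOs.

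The called row in this group lies at the stop of XPC, at 14144255 to 14144971 of chromosome 3, next to the end of TMEM43. It held 5.41, 2.65 and 3.40 CPM in NCA, 6.74, 6.22 and 6.88 in ASO2 and 6.22, 7.85 and 8.20 in ASO10. All 6 ASO libraries were above the 3 of NCA. It rose under ASO10 by 0.96 (log2, SE 0.27, adjusted p = 0.0392) and for the mean of both ASOs by 0.88 (SE 0.24, adjusted p = 0.0149), and under ASO2 the difference was 0.79 (adjusted p = 0.0552). The ASO10 call was lost without NCA replicate 2 or 3 and without any 1 of the 3 ASO10 libraries (adjusted p from 0.0644 to 0.315), with limma-voom (0.0607) and with library totals (0.0535), and the call for both ASOs without NCA replicate 2 or 3 (0.112 to 0.232). The row at the start of XPC, which it shares with LSM3, was not called, with 14.1 ± 2.12 CPM in NCA, 12.3 ± 1.86 in ASO2 and 16.6 ± 1.19 in ASO10 (SD, n = 3 each).

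Both metabolic genes had a gene-end row and neither passed the test. SESN1, a leucine-sensing inhibitor of mTORC1, held 39.2, 39.8 and 37.6 CPM in NCA, 34.4, 43.1 and 36.3 in ASO2 and 40.2, 43.5 and 47.8 in ASO10. ASO10 lay above NCA without overlap, by 0.17 (log2, interval -0.06 to 0.40). TIGAR, which lowers glycolytic flux, overlapped between all groups.

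**Figure D3:**
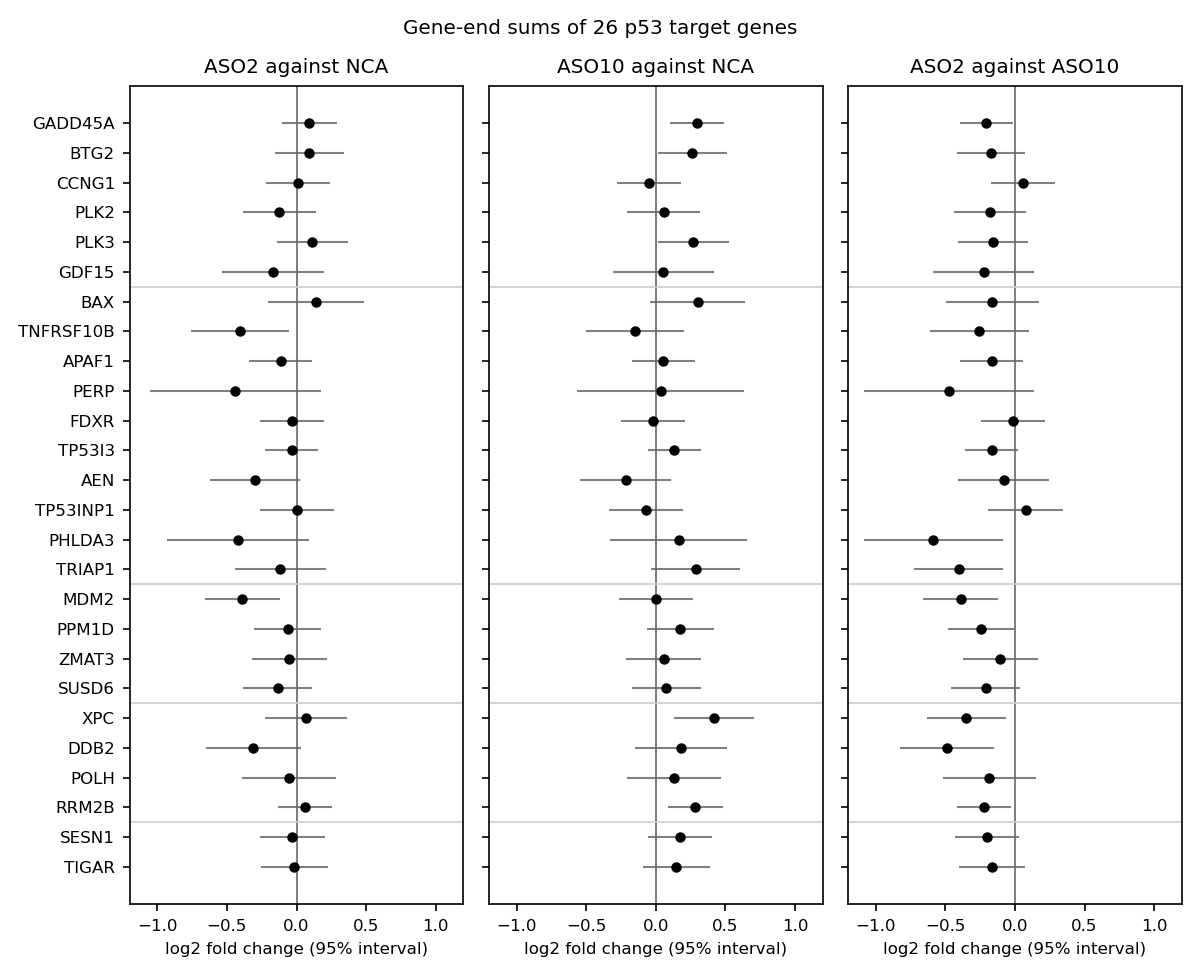
Fitted log2 fold change of the gene-end sum with its 95% interval for each of the 26 genes, for ASO2 against NCA, ASO10 against NCA and ASO2 against ASO10, ordered by function. Under ASO10 21 of 26 points are above 0, and between ASO2 and ASO10 24 of 26 are below 0, but no gene passes the adjusted threshold.

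The fitted values leaned to 1 side, as they did over all genes. How the shares differ was not tested. Under ASO10, 21 of the 26 sums were above 0, beside 65.2% of all genes. Between ASO2 and ASO10, 24 of 26 were below 0, and over all genes 24.5% were above 0. Under ASO2, 18 of 26 were below 0, with 40.2% of all genes above 0.

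The 4 genes with no gene-end row were open inside the gene. For CDKN1A the outermost RefSeq end lies upstream of the start in the promoter table, and a row at 36678349 to 36679481 of chromosome 6 is centred 0.201 kb from that start. It held 10.1, 7.82 and 8.28 CPM in NCA, 9.54, 8.05 and 9.36 in ASO2 and 8.80, 9.56 and 8.72 in ASO10. The 3 groups overlapped, and the log2 differences were 0.04 under ASO2 (interval -0.37 to 0.46) and 0.05 under ASO10 (interval -0.36 to 0.47). The other 2 rows near CDKN1A were not called in any comparison.

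FAS, the receptor of FAS ligand, had a row 0.579 kb from its start in the promoter table, and that row lies at an end of ACTA2. It held 6.57, 8.57 and 5.33 CPM in NCA, 4.77, 3.54 and 6.88 in ASO2 and 5.16, 6.03 and 8.46 in ASO10. The groups overlapped, and the log2 difference under ASO2 was -0.41 (interval -0.91 to 0.09). In SPATA18, a mediator of mitochondrial quality control, the row nearest to an end lies 44.0 kb from the start and held 8.998 ± 1.35 CPM in NCA, 8.24 ± 2.76 in ASO2 and 9.68 ± 2.66 in ASO10 (SD, n = 3 each), again with overlap.

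BBC3 encodes PUMA, a potent inducer of apoptosis. A wide row inside the gene, at 47225970 to 47228887 of chromosome 19 and 5.24 kb from the start, held 36.8, 37.4 and 35.2 CPM in NCA, 33.3, 37.3 and 31.5 in ASO2 and 45.5, 39.7 and 48.6 in ASO10. All ASO10 libraries were above the other 6. Against ASO10 it was lower in ASO2 by a log2 fold change of -0.39 (SE 0.12, adjusted p = 0.0446), while neither ASO differed from NCA by the test (adjusted p = 0.751 and 0.317). A row 11.02 kb beyond the gene, at 47243028 to 47244736, behaved likewise, with 26.2, 27.7 and 24.7 CPM in NCA, 24.3, 25.6 and 28.2 in ASO2 and 35.5, 35.04 and 34.9 in ASO10, and was lower in ASO2 than in ASO10 by -0.43 (log2, SE 0.13, adjusted p = 0.0350). The first call was lost without NCA replicate 1 or 3, ASO2 replicate 1 or 3, or ASO10 replicate 1 or 3 (adjusted p 0.0585 to 0.306), and the second without ASO2 replicate 1 or 2 or any ASO10 library (0.0997 to 0.207). Neither was called with loess offsets (0.246 and 0.134), with no filter (0.0732 and 0.0587) or with the replicate block (0.0734 and 0.0547).

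In total, 23 of the 25 genes in the promoter table had a row at the RefSeq start, and none of these rows was called in any of the 4 comparisons. Rows at the start were counted after the data had been seen.

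Away from the gene ends, 222 of the 259 other rows had enough counts for the test. They had from 2 to 16 rows per gene, 52 of the 259 lay inside the gene, and 43 of the tested rows lay at the end of a different gene. Under ASO2, 8 of the 222 were called, 5 of them higher, beside 5.6% of all tested rows (4.79% higher) and 6.12% of those not at a gene end. Under ASO10, 5 were called, 4 of them higher, beside 1.09% (0.876% higher) and 0.951%. For both ASOs, 8 were called, 6 of them higher, beside 2.99% (2.4% higher) and 3.2%. Between ASO2 and ASO10, 6 were called, 1 of them higher, beside 3.23% (2.54% higher) and 3.22%. As shares of the tested rows near the targets, these counts are 3.6%, 2.25%, 3.6% and 2.7%. Their median log2 fold change was -0.01 under ASO2 and -0.00 under ASO10.

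The count under ASO10 changed with the library left out. It was 0 without NCA replicate 1, ASO10 replicate 1 or ASO10 replicate 3, and 1 without NCA replicate 2. It was 2 without ASO2 replicate 1 and 3 without NCA replicate 3. Under ASO2 it was 4 without ASO2 replicate 2 and 5 without NCA replicate 2. For both ASOs it was 1 without NCA replicate 1, 2 without NCA replicate 2, NCA replicate 3 or ASO10 replicate 3, and 5 without ASO10 replicate 2 or any 1 of the ASO2 libraries. Between the ASOs it was 1 without ASO10 replicate 3, 2 without ASO10 replicate 1, 3 without ASO2 replicate 1, and 4 without ASO2 replicate 2 or 3. With the XPC row, 19 rows near 13 genes made 29 calls over the 4 comparisons.

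The calls with the smallest adjusted p lay near AEN, the nuclease that p53 induces in apoptosis. Their rows are outside the gene, and whether they belong to AEN was not tested. Upstream of the gene on chromosome 15, the row at 88580394 to 88580995, 24.0 kb from the gene, held 1.29, 2.65 and 2.38 CPM in NCA, 7.86, 6.98 and 6.51 in ASO2 and 5.16, 2.96 and 4.04 in ASO10. The 3 groups did not overlap, with ASO2 highest and NCA lowest. It rose under ASO2 by 1.74 (log2, SE 0.32, adjusted p = 1.1e-05) and for the mean of both ASOs by 1.33 (SE 0.30, adjusted p = 0.0011), while the difference under ASO10 was 0.93 (SE 0.34, adjusted p = 0.192). The call for both ASOs was lost without NCA replicate 1 (adjusted p = 0.0582).

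The row beside it, at 88579191 to 88579661 and 25.3 kb from the gene, held 2.06, 2.02 and 1.59 CPM in NCA, 7.30, 5.79 and 6.24 in ASO2 and 0.938, 3.75 and 3.65 in ASO10. ASO2 was above all other libraries, and ASO10 overlapped with NCA. It rose under ASO2 by 1.76 (log2, SE 0.36, adjusted p = 7.0e-05) and was higher in ASO2 than in ASO10 by 1.21 (SE 0.34, adjusted p = 0.0175). For both ASOs it rose by 1.16 (adjusted p = 0.0222). The ASO2 calls of these 2 rows were the only ones of the 29 kept in every leave-one-out fit and in each other setting that tested them. The difference between the ASOs was not called without ASO2 replicate 1, ASO2 replicate 3 or ASO10 replicate 1 (0.0666 to 0.322), nor the rise for both ASOs without any 1 NCA library, ASO2 replicate 1, or ASO10 replicate 2 or 3 (0.0646 to 0.137).

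Closer to the gene, the more open row at 88586145 to 88587760, 17.7 kb away, held 46.5, 37.4 and 40.7 CPM in NCA, 46.6, 54.2 and 52.8 in ASO2 and 61.5, 52.0 and 53.5 in ASO10. Both ASO groups were above NCA, with the lowest ASO2 library and the highest NCA library nearly level. It rose under ASO10 by 0.42 (log2, SE 0.12, adjusted p = 0.0328) and for both ASOs by 0.36 (SE 0.10, adjusted p = 0.0191). The ASO10 call was kept only without ASO2 replicate 2 or ASO2 replicate 3, and elsewhere was lost (0.0512 to 0.354), and that for both ASOs was lost without NCA replicate 2, NCA replicate 3 or ASO10 replicate 1 (0.0992 to 0.243). At the RefSeq start of AEN itself, whose promoter with its half-site is printed above, the row at 88620837 to 88621730 was not called, with 21.5 ± 2.98 CPM in NCA, 18.0 ± 1.01 in ASO2 and 22.5 ± 2.498 in ASO10 (SD, n = 3 each).

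**Figure D4:**
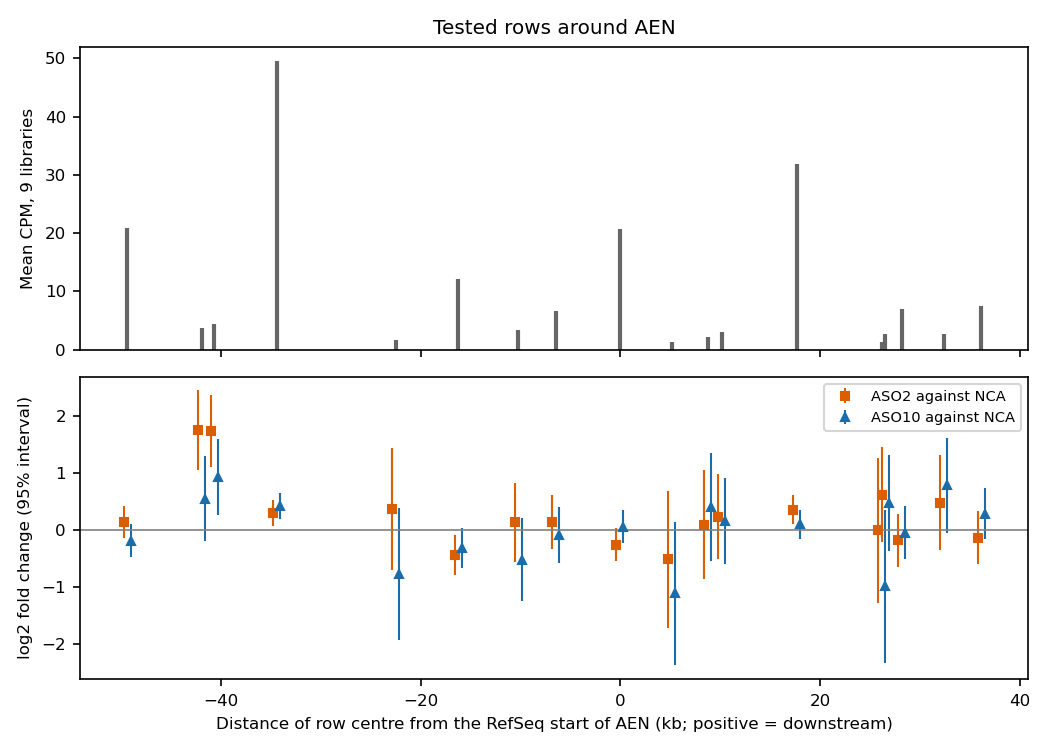
Tested rows around AEN by the distance of their centre from the RefSeq start in kb, positive downstream. Bars give the mean CPM of the 9 libraries, and points give the log2 fold change of ASO2 and ASO10 against NCA with 95% intervals. The 2 rows about 41 to 42 kb upstream of the start stand at 1.74 and 1.76 under ASO2, and the row at the start at -0.25 under ASO2 and 0.06 under ASO10.

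Other rows rose under ASO2, ASO10 or their mean. Inside PPM1D, 1.98 kb from its start, the row at 60602058 to 60602290 of chromosome 17 held 2.19, 1.26 and 2.16 CPM in NCA, 3.23, 4.72 and 5.23 in ASO2 and 3.75, 3.30 and 4.69 in ASO10. All ASO libraries were above NCA, and it rose by 1.24 under ASO2 (log2, SE 0.38, adjusted p = 0.0229) and by 1.15 for both ASOs (SE 0.34, adjusted p = 0.0309). The ASO2 call was lost without NCA replicate 2, ASO2 replicate 2 or ASO2 replicate 3 (0.102 to 0.167), and that for both ASOs without any 1 NCA library, ASO2 replicate 2, ASO2 replicate 3 or ASO10 replicate 3 (0.0673 to 0.245).

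Within PGPEP1, 21.2 kb from GDF15, the gene of a secreted stress factor, the row at 18364574 to 18365400 of chromosome 19 held 8.12, 5.93 and 9.30 CPM in NCA, 11.5, 11.4 and 10.6 in ASO2 and 12.7, 10.5 and 15.0 in ASO10. All ASO libraries were above NCA, and it rose by 0.70 under ASO10 (log2, SE 0.20, adjusted p = 0.0441) and by 0.60 for both ASOs (SE 0.17, adjusted p = 0.0267). Both calls were lost without NCA replicate 1, NCA replicate 2 or ASO10 replicate 3, and the ASO10 call also without ASO2 replicate 1 or ASO10 replicate 1 (0.0516 to 0.380). The ASO10 call was also lost with DESeq2, limma-voom, library totals, loess offsets, no filter and the replicate block (0.0519 to 0.0813), and the call for both ASOs with DESeq2 and limma-voom (0.0567 and 0.0582). On the other side of GDF15, within SSBP4 and 30.1 kb away, the row at 18418958 to 18419677 held 10.0, 9.71 and 9.98 CPM in NCA, 6.46, 5.90 and 4.86 in ASO2 and 11.7, 7.96 and 13.2 in ASO10. ASO2 was below every other library: it fell by 0.80 against NCA (log2, SE 0.22, adjusted p = 0.0084) and was lower than ASO10 by a log2 fold change of -0.94 (SE 0.22, adjusted p = 0.0019). The first call was lost without ASO2 replicate 3 (adjusted p = 0.0888) and the second without ASO10 replicate 3 (0.0698).

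Near BAX, the row at the end of FTL, the ferritin light chain gene, at 48964920 to 48966000 of chromosome 19, held 17.6, 14.9 and 18.5 CPM in NCA, 21.6, 22.4 and 15.0 in ASO2 and 24.4, 24.7 and 27.5 in ASO10. ASO10 was above all other libraries and it rose by 0.58 (log2, SE 0.15, adjusted p = 0.0156), a call lost without NCA replicate 1 or 2 or ASO10 replicate 1 or 3 (0.0565 to 0.175). This row is 3.66 kb from BAX and lies at the end of FTL, so it cannot be assigned to BAX. A second row, within GYS1 and 8.22 kb from BAX, rose by 0.44 for both ASOs (adjusted p = 0.0479), which was kept only without ASO10 replicate 1 (0.0516 to 0.221 in the other leave-one-out fits). Downstream of BTG2, 18.0 kb away, a row held 25.5, 24.5 and 27.9 CPM in NCA and 40.5, 30.9 and 39.2 in ASO10, without overlap, and rose by 0.50 (log2, SE 0.13, adjusted p = 0.0186). That call was lost without NCA replicate 1 or 2 or ASO10 replicate 1 or 3 (0.127 to 0.244).

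GADD45A had a called row on either side. The row at 67645673 to 67647445 of chromosome 1, 38.6 kb from the gene, held 53.1, 37.4 and 46.4 CPM in NCA, 37.3, 43.2 and 35.05 in ASO2 and 35.7, 31.9 and 34.5 in ASO10. ASO10 was below NCA without overlap: it fell by 0.42 (log2, SE 0.12, adjusted p = 0.0468), and for both ASOs by 0.33 (adjusted p = 0.0443). The ASO10 call was kept only without NCA replicate 2, ASO2 replicate 2 or ASO2 replicate 3 (0.0816 to 0.473 otherwise), and that for both ASOs only without NCA replicate 2 or ASO2 replicate 2 (0.0743 to 0.499 otherwise). Both were lost with no filter and with the replicate block (0.0836 to 0.091), and the call for both ASOs also with DESeq2 (0.0679). The row at the end of GNG12, 12.7 kb from GADD45A, rose under ASO2 by 0.51 (adjusted p = 0.0297), with 17.5, 12.7 and 11.5 CPM in NCA and 22.5, 19.3 and 17.9 in ASO2. The call was lost without NCA replicate 2 or 3 or ASO2 replicate 1 or 2 (0.0655 to 0.262).

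The remaining called rows were at 5 genes. Within FAM228B and PFN4, 33.4 kb from TP53I3, a row rose under ASO2 by 0.44 (log2, adjusted p = 0.0147), from 29.4 ± 3.07 to 39.8 ± 3.81 CPM (SD, n = 3 each). Upstream of PERP, 8.67 kb away, a row fell under ASO2 by 1.17 (adjusted p = 0.0327), from 4.79 ± 1.204 to 2.17 ± 0.624 CPM (SD, n = 3 each). Both were without overlap between the groups. Within GTPBP2, 6.86 kb from POLH, a row fell for both ASOs by 1.07 (adjusted p = 0.0371), from 4.70 ± 0.3002 CPM in NCA to 2.18 ± 0.601 in ASO2 and 2.31 ± 0.201 in ASO10 (SD, n = 3 each).

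The other two rows differed between the ASOs. At 102187187 to 102187886 of chromosome 8, 17.0 kb from RRM2B, ASO2 held 1.40, 1.29 and 2.02 CPM, NCA 4.38, 4.66 and 2.27 and ASO10 3.87, 4.78 and 3.52. ASO2 was below all other libraries: it fell by 1.23 against NCA (log2, SE 0.40, adjusted p = 0.0410) and was lower than ASO10 by a log2 fold change of -1.35 (SE 0.40, adjusted p = 0.0288). At 179119658 to 179120659 of chromosome 3, 47.6 kb from ZMAT3, ASO2 held 1.54, 2.04 and 5.23 CPM and ASO10 4.46, 5.35 and 8.20, which overlap, and ASO2 was lower by -0.96 (SE 0.30, adjusted p = 0.0426).

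These last calls were also lost in some of the leave-one-out fits. The TP53I3 call was lost without NCA replicate 2 or ASO2 replicate 1 or 2 (0.0850 to 0.182), and the PERP call without NCA replicate 1 or 3 or ASO2 replicate 2 or 3 (0.103 to 0.193). The POLH call was kept only without ASO2 replicate 1 (0.0575 to 0.186 otherwise). At RRM2B the ASO2 call was lost without NCA replicate 1 or 2, ASO2 replicate 1 or 2, or ASO10 replicate 1 or 2 (0.0513 to 0.228), and the difference between the ASOs without ASO2 replicate 1 or 2 or any ASO10 library (0.0567 to 0.179). The ZMAT3 difference was lost without ASO2 replicate 1 or 2 or ASO10 replicate 2 or 3 (0.0768 to 0.419).

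Several of the calls near other targets were also lost with other processing. With DESeq2 the adjusted p was 0.0821 for the GNG12 row near GADD45A and 0.0521 for the PERP row, and with limma-voom it was 0.0921 for the PPM1D row and both ASOs. With loess offsets it was 0.0831 for the BTG2 row. At AEN the row 25.3 kb away was lost for both ASOs with DESeq2 (0.0511) and limma-voom (0.169) and between the ASOs with DESeq2 (0.0575). The row 17.7 kb from AEN was lost under ASO10 with loess offsets (0.234), no filter (0.0532) and the replicate block (0.0683). The GYS1 row near BAX was lost with DESeq2, limma-voom, library totals, loess offsets, no filter and the replicate block (0.0588 to 0.0907). The ZMAT3 row was lost with DESeq2 (0.151), limma-voom (0.0617) and no filter (0.0541). At RRM2B the ASO2 call was lost with DESeq2, limma-voom, no filter, the replicate block and a fit of only the groups compared (0.0527 to 0.131), and the difference between the ASOs with limma-voom (0.0582).

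**Figure D5:**
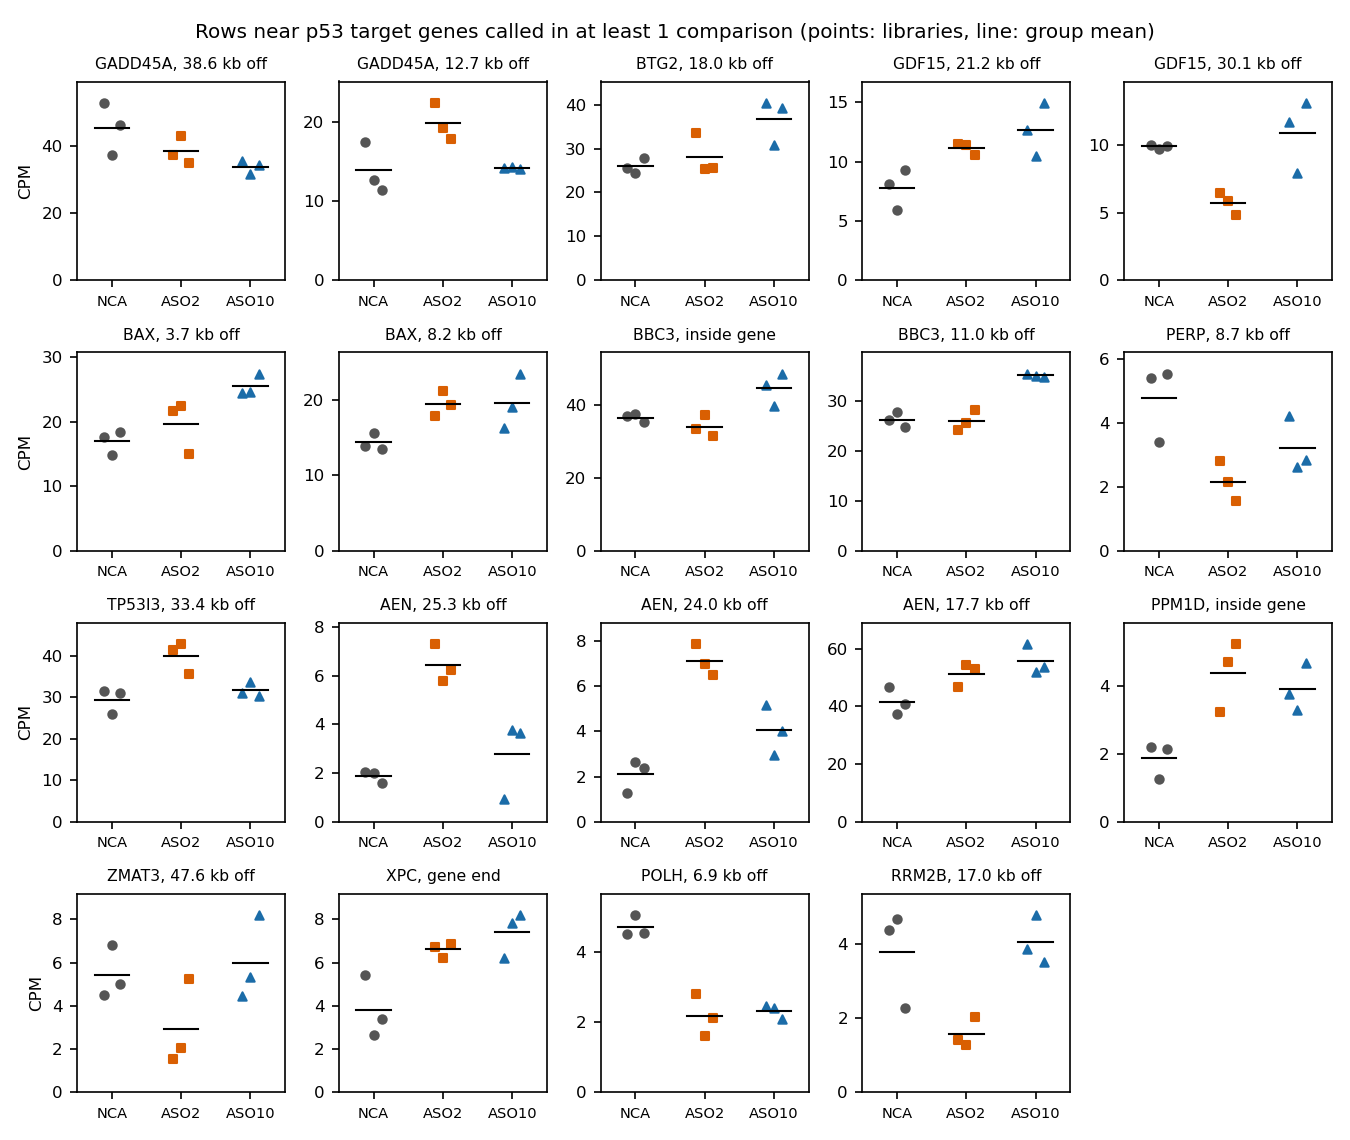
CPM in each of the 9 libraries for the 19 rows near p53 target genes that were called in at least 1 of the 4 comparisons, with the distance to the gene above each panel. Points are libraries and lines group means, and each vertical axis starts at 0. ASO2 stands apart from NCA and ASO10 at AEN (25.3 kb), and at GDF15 (30.1 kb) and RRM2B it lies below both.

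Further genes of the pathway were counted from a list of 23 regulators of p53 and 32 other targets. Of the regulators, 21 had a gene-end row. Under ASO2 none passed the test (0.203% of all genes did), and under ASO10 3 rose (4.86% of all genes were called): KAT5, an acetyltransferase of p53, by 0.45 (log2, SE 0.11, adjusted p = 0.0062), TP53BP1, a DNA break adaptor, by 0.36 (SE 0.11, adjusted p = 0.0205), and EP300, a coactivator, by 0.41 (SE 0.13, adjusted p = 0.0371). KAT5 also rose for both ASOs, by 0.39 (adjusted p = 0.0227). Between ASO2 and ASO10, where 5.0% of all genes were called, EP300 and the related coactivator CREBBP were lower in ASO2, by log2 fold changes of -0.47 (adjusted p = 0.0158) and -0.51 (adjusted p = 0.0319).

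Of the 32 other targets, 26 had a gene-end row, and SESN2, a sestrin like SESN1, was the single call, higher under ASO10 by 0.48 (log2, SE 0.14, adjusted p = 0.0280), where 4.86% of all genes were called. It held 16.2, 20.05 and 19.2 CPM in NCA and 24.4, 28.0 and 24.9 in ASO10, without overlap. Over all genes, 65.2% of the sums were above 0 under ASO10, and 20.2% were higher than NCA without overlap. For these regulators and other targets, leave-one-out fits and other settings are not given here.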

How the data were processed

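Accessibility was measured by ATAC-seq in 9 SK-N-BE(2)c libraries, 3 per treatment (NCA, ASO2, ASO10). The authors deposited whole-number counts without normalization, per the file header and the values, in 1 set of rows for all libraries. Bowtie2 2.2.6, SAMtools, FastQC, MACS2 2.1.2, DESeq2 1.42.0 and hg38/GRCh38 are named in the submitters' processing notes. Filters, the shift of Tn5 sites and the unit counted (reads, pairs or cut sites) are not given in the sources used here, and fragments counted by cut sites would give other totals. The molecule is labelled as RNA, but the extraction text describes tagmented genomic DNA, which was followed.

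Row positions are those of the row names, in GRCh38; whether these count from 0 or 1 is not stated. Gene ends came from a RefSeq table (GRCh38.p14), which lists all 30 genes, and starts from RefSeq promoters, which list 25. Counts were filtered with filterByExpr, scaled by TMM, and tested with edgeR 4.0.16 (R 4.3.3; quasi-likelihood, robust, all 9 libraries, 1 term per group), with Benjamini-Hochberg adjustment over all 119417 rows, or over 13804 genes for gene-end sums, and a threshold of 0.05. Intervals are 95%. No library was a copy of a replicate (chi-square divided by its degrees of freedom 2.74 to 3.42 between replicates). The fits were tested on simulated data for ASO2 against NCA, with 200 rows or 200 gene sums changed by 1 on the log2 scale. Of the changed rows 19.5% were recovered, and 85.3% of those above 3 log2 CPM. Of the changed gene sums 83.5% were recovered. False calls were 0 of 39 for rows and 5 of 172 for gene sums. Alternatives were DESeq2 1.42.0, limma-voom (limma 3.58.1), RLE factors, library totals, loess offsets (span 0.3), a fit of only the groups compared, a replicate block, no filter, a minimum of 10 counts per library, other windows and flanks, and leaving out each library. Rows at the RefSeq start were added after seeing the data.

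The genes, lists and tests were chosen with earlier results of these data known. Genes named are those with a called row or sum in any comparison, the 2 highest and 2 lowest sums per comparison, sums with an unadjusted p under 0.01, and 12 genes named for their role. Others (APAF1, FDXR, TRIAP1, PLK2, SUSD6, SPATA18, TIGAR) are named for coverage, levels or sequence. One result of the regulator list is not reported here.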

Additional observations from a re-analysis of the deposited data

Results flagged for a closer look

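A set of 6 of the 222 tested rows near p53 target genes differed between ASO2 and ASO10 by the direct test of that difference (edgeR, adjusted p under 0.05); that is 2.7% of them, beside 3.23% of all rows. Each of these 6 calls was lost in at least 1 leave-one-out fit. The row 25.3 kb from AEN was higher in ASO2 than in ASO10 by 1.21 (log2, adjusted p = 0.0175). The row 30.1 kb from GDF15 gave -0.94 (adjusted p = 0.0019), the row inside BBC3 -0.39 (0.0446), the row 11.02 kb from BBC3 -0.43 (0.0350), the row 47.6 kb from ZMAT3 -0.96 (0.0426) and the row 17.0 kb from RRM2B -1.35 (0.0288), all lower in ASO2. Of these, the GDF15 row and the RRM2B row were also lower in ASO2 than in NCA by the test, and the AEN row was higher.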

How the results depend on the processing

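No called row changed direction with the processing, while the median for both ASOs, which lies near 0, did. The 29 row calls were less stable, each counted over the fits that tested its row. In every setting other than the leave-one-out fits 11 held, and 2, both near AEN under ASO2, held in every such fit and setting. The cause was not tested. In rows with few counts depth limits what can be detected, as the intervals at PERP show.

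Gene-end rows called under ASO2 (0) became 1 with library totals, with loess offsets and with a 2 kb window, and 2 with at least 10 counts (MDM2 in each, joined by XPC in the last, apart from the wider window). Under ASO10 (1) they became 2 with DESeq2 and 0 with library totals (XPC lost), with a window of 500 bases and at the RefSeq start. With limma-voom the count stayed at 1, but XPC was lost (adjusted p = 0.0607) and GADD45A was called (0.0445). For both ASOs (1) they became 0 with 500 bases and at the RefSeq start, and 2 with 2 kb. Between ASO2 and ASO10 (0) they became 1 with at least 10 counts and with only the groups compared. Leaving out a library gave 0 to 1 in each of the 4 comparisons.

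Gene-end sums called under ASO10 (0) became 1 with DESeq2, limma-voom and a 2 kb window, 2 with at least 10 counts and 3 with only the groups compared, and ranged from 0 to 3 without 1 library. Between the ASOs (0) they became 2 with at least 10 counts and with only the groups compared (MDM2 and DDB2 in each), and ranged from 0 to 2. The other comparisons stayed at 0.

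Other rows called under ASO2 (8) became 5 with DESeq2 and 4 with a flank of 20 kb, and ranged from 4 to 8 without 1 library. Under ASO10 (5) they became 2 with loess offsets, with no filter and with the replicate block, 3 with 20 kb and 8 with 100 kb, and ranged from 0 to 5. For both ASOs (8) they became 4 with DESeq2, limma-voom and 20 kb, and ranged from 1 to 6. Between the ASOs (6) they became 3 with no filter and with 20 kb, and ranged from 1 to 6.

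The median log2 fold change of the gene-end rows was -0.12 under ASO2 with 500 bases, -0.11 at the RefSeq start, and -0.092 to -0.011 without 1 library. Under ASO10 it was 0.039 with loess offsets, 0.078 at the RefSeq start, and 0.077 to 0.15. For both ASOs (0.0029) it was -0.060 with loess offsets, and -0.018 to 0.050. Between the ASOs it was -0.053 with loess offsets, and -0.24 to -0.14.

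With the replicate number as a block, 8 of the 29 row calls were lost and the count under ASO10 moved from 5 to 2, while no other count moved by over 1.5 times. Deviations of libraries with the same number correlated with r from -0.036 to 0.013 (9 pairs across rows), and those with different numbers from -0.021 to 0.031 (18 pairs). No pairing by number showed in these correlations. Noise in rows with few counts also draws r towards 0, so they cannot tell whether libraries of the same number shared a culture.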
